A study of Drosophila melanogaster with 12 samples.

Results

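The ageing of *Drosophila* outer photoreceptors that expressed Clk-DN, a dominant negative form of the clock transcription factor Clock, was described across all genes. The comparison used 6 of the 12 samples of the series, 3 of Rh1>ClkDN at D10 and 3 of Rh1>ClkDN at D1, and it was defined by genotype and age with no use of measured values. In both groups *rh1*-Gal4 drove UAS-ClkDN together with UAS-GFP-Msp300KASH, a nuclear membrane tag, in a *w* background. The *rh1* driver is active in the R1 to R6 photoreceptors of the eye, and the tagged nuclei were enriched with an antibody from the heads of pooled male flies. The other 6 samples, 3 of Rh1>Ctrl at D10 and 3 of Rh1>Ctrl at D1, carried the same driver and tag with UAS-LacZ in place of UAS-ClkDN. Flies were kept at 25 °C in 12 hours of light and 12 hours of dark and were collected at Zeitgeber time 9. The younger flies are called D1 here, after the growth protocol, in which they were aged for 1 day, although their titles say day 2. Nuclei of cells in which the driver is silent can remain after enrichment, and in such bulk samples fewer cells of a type and less RNA per cell cannot be told apart.

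Clock (Clk) pairs with Cycle (Cyc), and the pair binds DNA through basic domains to switch on *per*, *tim*, *vri*, *Pdp1* and *cwo*, whose products act back on it over the day. Clk-DN keeps the part that binds Cyc and lacks the part that contacts DNA. Photoreceptors turn light into an electrical signal through Rhodopsin 1, a G protein, phospholipase C (*norpA*) and the channels encoded by *trp* and *trpl*. The cells are long-lived neurons with a dense membrane stack, the rhabdomere, and they rely on chaperones, antioxidants and mitochondria to withstand light over a lifetime.

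The files gave counts of reads for 13929 genes. Total counts per library lay between 4452076 and 4939198 at D10 and between 3825086 and 5635951 at D1. Replicate 1 of the D1 group stood apart from replicates 2 and 3, as shown by chi-square tests of their counts over genes. The statistic divided by its degrees of freedom was 15.6 and 15.9 against replicates 2 and 3, which gave 3.44 between themselves, and it was 3.12 to 6.49 between D10 libraries. *Clk*, whose counts hold reads of the transgene and of the endogenous gene together, was at 9776, 8428 and 9702 CPM (counts per 1000000 of the library total, with the total scaled by TMM) at D10, against 5191, 6943 and 6892 CPM at D1. In Rh1>Ctrl it averaged 57.6 ± 22.1 CPM at D10 and 25.9 ± 7.1 CPM at D1 (SD, n = 3 each), so that all 6 Rh1>ClkDN libraries held the high level their labels imply. Summed over 11 R1 to R6 markers and scaled to library totals, Rh1>ClkDN levels were 36256 to 36642 CPM at D10 and 30739 to 31481 CPM at D1. In Rh1>Ctrl these sums were higher, at 75522 to 117445 CPM at D10 and 69948 to 89878 CPM at D1. In Rh1>ClkDN *ninaE*, which encodes Rhodopsin 1, was at 1189, 1169 and 1173 CPM at D10 and 1199.8, 1117 and 1144 CPM at D1. The glial marker *repo* was at 6.79, 9.49 and 1.77 CPM at D10 and 6.17, 5.51 and 6.27 CPM at D1. Summed over 15 glial markers, Rh1>ClkDN levels were 1647 to 1715 CPM at D10 and 1028 to 1451 CPM at D1. The same sums in Rh1>Ctrl were lower, at 438 to 546 CPM at D10 and 396 to 480 CPM at D1. In Rh1>ClkDN *Eaat1* alone held most of the D10 sum. The 14 glial markers tested there had a median log2 fold change of -0.04 at D10 relative to D1.

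The filter asked for 10 or more counts in 3 or more of the 6 samples and left 8451 genes. Of these, 1235 were differentially expressed genes (DEGs) at D10 relative to D1, or 14.6%. A DEG had a Benjamini-Hochberg adjusted p under 0.05 in edgeR's quasi-likelihood test and a fold change over 1.5. Expression rose for 713 genes (8.44%) and fell for 522 (6.18%). These shares are the background for the counts of every gene list below. The change was over 2-fold for 486 of the genes that rose and 288 of those that fell. Among all genes tested, the 3 samples of one age lay wholly above or below the 3 of the other for 2950 (34.9%), and for 1226 of the 1235 DEGs. The median log2 fold change was -0.03 over all genes tested, 1.30 over the genes that rose and -1.07 over those that fell. In 31 genes that rose no D1 library had more than 3 counts, and in 13 that fell no D10 library did. Such genes passed the count filter only through the age at which they were high, so they had to differ. The number of DEGs was 1575 without replicate 1 of D1 and 886 to 1120 without each of the other libraries. A fit that took its estimate of spread from all 12 samples of the series called 297, all of them among the 1235 and in the same direction, and none of the gene lists below had more DEGs in that fit.

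**Figure D1:**
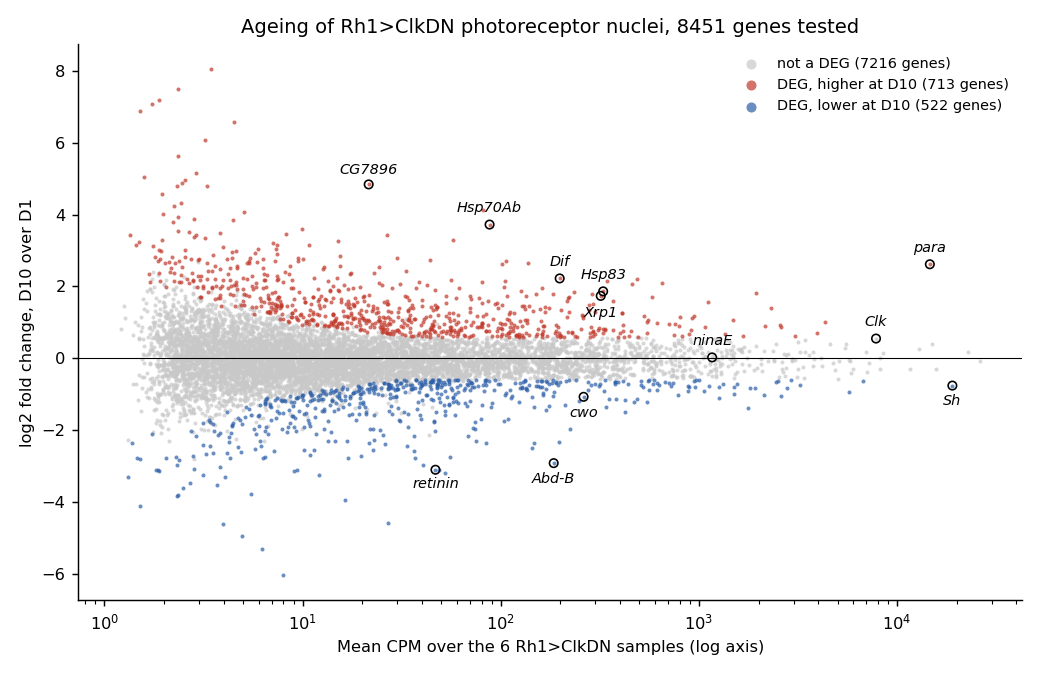
Log2 fold change of each of the 8451 genes (vertical axis, D10 over D1) against its mean CPM over the 6 Rh1>ClkDN samples (horizontal log axis). Red points are the 713 genes that rose, blue points the 522 that fell, grey points the rest, and named genes are circled. DEGs lie at every level of expression, with *para* and *Sh* at the highest.

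The largest rise was that of *CG7896*, among DEGs whose mean count was 50 or more and whose D10 and D1 values did not overlap. It was at 50.1, 38.9 and 35.9 CPM at D10, against 2.06, 0.590 and 1.71 CPM at D1, a log2 fold change of 4.84 (SE 0.35, adjusted p = 1.72e-07). *CG2861* came next, with 134, 178 and 149 CPM at D10 and 8.69, 6.89 and 10.5 CPM at D1, a log2 fold change of 4.14 (SE 0.19, adjusted p = 7.38e-09). Every D10 library held more than 10 times the highest D1 value of each of these genes. The other genes among the 15 largest rises had log2 fold changes between 2.54 for *CG2839* and 3.72 for *Hsp70Ab*. They included *Stip1*, a co-chaperone that links Hsp70 to Hsp90, *para*, the voltage-gated sodium channel, and *Octbeta3R*, a receptor for octopamine. *GstT3* encodes a glutathione S-transferase and *clos* an eggshell protein, with log2 fold changes of 2.57 and 2.79. *CG33521*, *Kif3C*, *CG17600*, *laf*, *CG15365* and *tbc* completed the group, with log2 fold changes from 2.64 for *tbc* to 3.44 for *CG33521*. Of the 15 genes, *Hsp70Ab*, *CG33521*, *Kif3C* and *clos* share exon sequence with another annotated gene or element, and their counts are uncertain because the sources do not say whether reads were counted by strand.

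Heat shock proteins and their partners, which fold proteins and hold damaged ones in solution, rose more often than they fell. Of 30 heat shock and cytosolic chaperone genes tested, 13 rose and 2 fell, where 8.44% of all genes tested rose and 6.18% fell, with a median log2 fold change of 0.40 against -0.03 over all genes. The counts were the same without replicate 1 of D1, though not all the members were. Without each of the other libraries 10 or 11 rose and none or 1 fell, and in the fit of all 12 samples 6 rose and none fell. *Hsp83* (FBgn0001233, chromosome 3L from 3192969 to 3197059 on the dm6 genome) encodes the fly Hsp90. It was at 519.5, 529 and 497 CPM at D10, against 188, 116 and 121 CPM at D1, a log2 fold change of 1.86 (SE 0.16, adjusted p = 1.20e-06). *Hsp110*, a nucleotide exchange factor for Hsp70, was at 299, 274 and 278 CPM at D10 and 86.6, 84.0 and 73.5 CPM at D1, a log2 fold change of 1.80 (SE 0.12, adjusted p = 9.31e-08). *DnaJ-1*, an Hsp40 that delivers clients to Hsp70, had 246, 218 and 239 CPM at D10, against 66.8, 70.0 and 64.6 CPM at D1. Its log2 fold change was 1.80 (SE 0.12, adjusted p = 9.31e-08). *Stip1* was at 66.5, 81.3 and 80.3 CPM at D10 and 10.3, 11.4 and 12.5 CPM at D1, a log2 fold change of 2.73 (SE 0.19, adjusted p = 1.29e-07). In each of these genes all D10 samples were above all D1 samples.

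The inducible Hsp70 is encoded by copies that are nearly identical, so reads may be split among them and values of single copies are uncertain. *Hsp70Ab* was at 143, 178 and 169 CPM at D10 and 4.80, 19.7 and 12.2 CPM at D1, a log2 fold change of 3.72 (SE 0.30, adjusted p = 6.11e-07). *Hsp70Bc* was called from low counts (2.12), and *Hsp70Ba* was not called (-0.46). *Hsp70Bb*, the most abundant copy, had 1644, 2471 and 1906 CPM at D10 and 692, 996 and 1211 CPM at D1, a log2 fold change of 1.05 (SE 0.19, adjusted p = 0.00120). Summed over the 6 copies in the table, of which 4 were tested, Hsp70 was at 1808, 2673 and 2091 CPM at D10, against 715, 1032 and 1240.0 CPM at D1, and the ages did not overlap. Other members rose as well. They were the constitutive *Hsc70-4* (log2 fold change 0.67), the mitochondrial *Hsc70-5* (0.99), *stv*, a BAG-domain partner of Hsp70 (0.78), and the small heat shock protein gene *CG14207* (1.36). *Cdc37*, which brings kinases to Hsp90, had a log2 fold change of 0.78 and *Hsp60B*, a relative of the mitochondrial chaperonin, of 1.5. *p23*, another Hsp90 partner, fell, with a log2 fold change of -0.91 (adjusted p = 0.0394), and so did the small heat shock protein gene *Hsp67Bc* (-1.43, adjusted p = 0.0241). *p23* was not called without replicate 1 of D1. The small heat shock protein genes *Hsp26* and *Hsp27*, and the Hsp70 relative *Hsp68*, were not DEGs, with log2 fold changes of 0.26, -0.65 and 0.16.

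The chaperonin CCT is a ring of 8 subunits that folds actin and tubulin. Of the 8 subunit genes, 7 rose and none fell, and their median log2 fold change was 1.36. The steepest was *CCT4*, with 33.7, 29.4 and 29.7 CPM at D10 and 10.1, 7.87 and 5.70 CPM at D1, a log2 fold change of 1.98 (SE 0.26, adjusted p = 7.19e-05). *CCT2* was the most abundant, with 135, 175 and 157 CPM at D10 and 101, 90.9 and 106 CPM at D1, a log2 fold change of 0.65 (SE 0.13, adjusted p = 0.00287). *CCT1*, *CCT3*, *CCT5*, *CCT7* and *CCT8* had log2 fold changes between 0.92 and 1.74, and *CCT6*, the member that was not called, had 0.58 (adjusted p = 0.242). Over the fits that each left out 1 library, 5 to 7 of the subunit genes were called, and in the fit of all 12 samples 3 were.

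**Figure D2:**
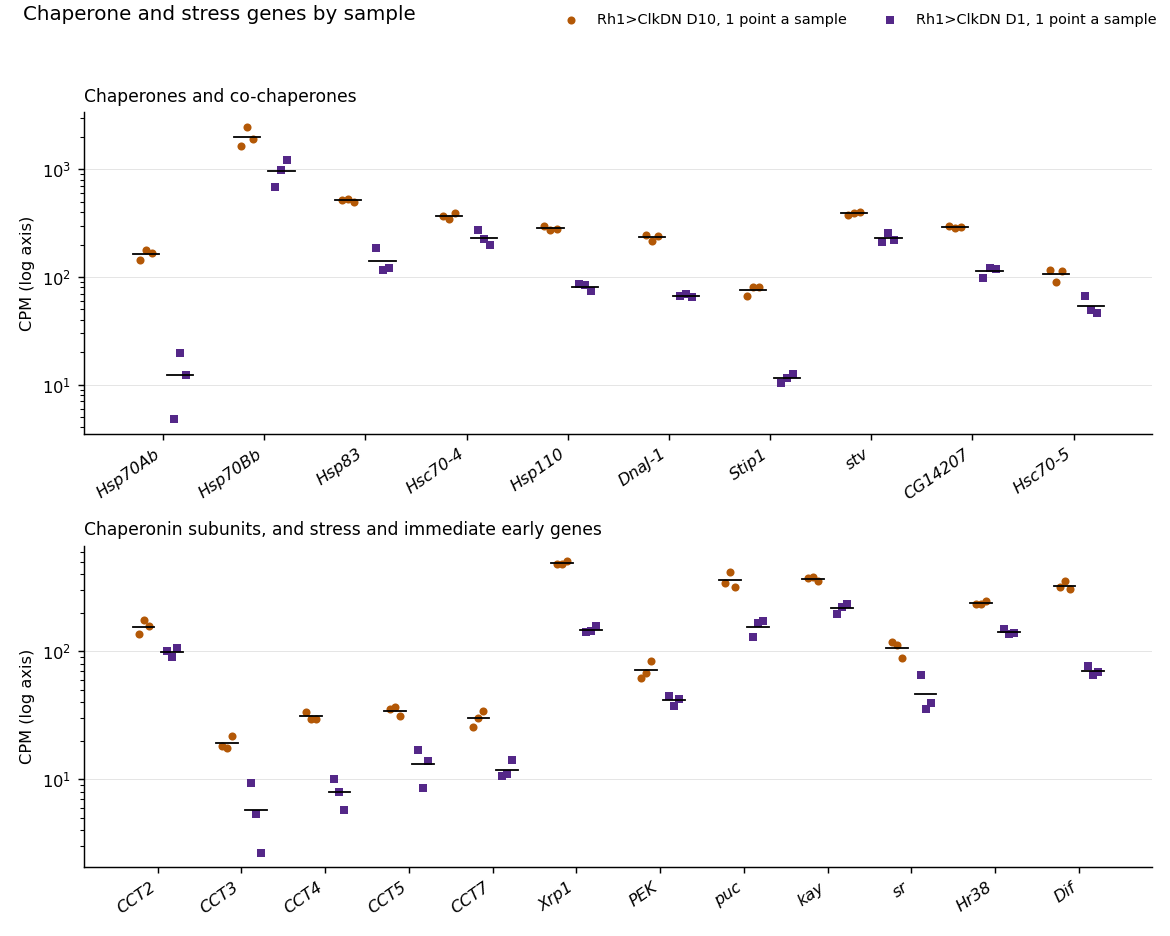
CPM of chaperone genes (upper panel) and of chaperonin, stress and immediate early genes (lower panel) in each Rh1>ClkDN sample, on log axes. Circles are the 3 D10 samples, squares the 3 D1 samples and bars the means. For every gene drawn the D10 points lie above the D1 points.

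Some transcription factor and signalling genes of the stress response were among the genes that rose. *Xrp1* (FBgn0261113, chromosome 3R from 18914968 to 18926989) encodes a bZIP transcription factor of the response to damaged ribosomes and to DNA damage. It was at 482, 483 and 509.9 CPM at D10, against 141, 144 and 157 CPM at D1, a log2 fold change of 1.74 (SE 0.11, adjusted p = 7.91e-08). Of 13 genes tested of the integrated stress response and of *Xrp1*, 4 rose and 1 fell. Without replicate 3 of D10 2 rose, and in the fit of all 12 samples 1 did. *PEK*, the kinase that slows translation when proteins misfold in the endoplasmic reticulum (ER), had a log2 fold change of 0.77 (SE 0.17, adjusted p = 0.00485). *Ldh*, lactate dehydrogenase, and *Gadd45* also rose, but from at most 10 and 15 counts a library at D1, with log2 fold changes of 2.66 and 2.19. *AsnS*, asparagine synthetase, fell (-1.17, adjusted p = 0.0482) and was not called without replicate 1 of D1. Among 27 genes of ER folding and the unfolded protein response, 5 rose and none fell, and 8 rose without replicate 1 of D1. None was called in the fit of all 12 samples, in edgeR's test against a change of 1.5-fold (glmTreat) or at a fold change over 2. They included *Hsc70-3*, the ER Hsp70 known as BiP, with 161, 171 and 170.0 CPM at D10 and 106, 76.5 and 85.7 CPM at D1, a log2 fold change of 0.91 (SE 0.14, adjusted p = 0.000237). *Gp93*, the ER Hsp90, and *Cnx99A*, a calnexin that Rhodopsin 1 needs in order to fold, had log2 fold changes of 0.78 and 0.70. *Atf6*, a transcription factor of the same response, had 0.75.

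The Jun kinase phosphatase *puc*, which is itself induced by Jun kinase, was at 344, 419 and 319.7 CPM at D10, against 129, 166 and 173 CPM at D1, a log2 fold change of 1.21 (SE 0.14, adjusted p = 2.19e-05). *kay*, the fly Fos, had 371, 381 and 351 CPM at D10 and 197, 221 and 233 CPM at D1, a log2 fold change of 0.76 (SE 0.11, adjusted p = 0.000224). *sr*, the fly Egr, and *Hr38*, a nuclear receptor induced by neuronal activity, had log2 fold changes of 1.19 and 0.76. These 4 were the DEGs among 11 immediate early genes tested, whose median log2 fold change was 0.65, and 2 rose in the fit of all 12 samples. *Dif* (FBgn0011274, chromosome 2L from 17413248 to 17433161), an NF-kappaB factor of the Toll pathway, was at 319, 353 and 307 CPM at D10, against 76.1, 65.1 and 68.6 CPM at D1, a log2 fold change of 2.22 (SE 0.12, adjusted p = 1.99e-08). It shares exon sequence with *CG15141* on the other strand. Genes of the Toll and Imd pathways, *Dif* among them, went both ways. Of 23 tested, 3 rose and 3 fell, where 8.44% and 6.18% of all genes did. In the fit of all 12 samples 1 rose and 1 fell. Without replicate 3 of D10 1 fell. The Imd inhibitor *pirk* and the receptor *PGRP-LE* rose (2.19 and 1.09). *Rel*, the NF-kappaB factor of the Imd pathway, the kinase *Tak1* and the caspase *Dredd* fell (-0.85, -0.61 and -1.61).

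Of 23 antioxidant genes tested, 2 rose and 1 fell, shares close to the 8.44% and 6.18% of all genes, with a median log2 fold change of -0.16, or 0.11 without replicate 1 of D1. *Gclc*, the catalytic subunit of the enzyme that starts glutathione synthesis, was at 150.1, 153 and 136 CPM at D10, against 70.2, 64.9 and 72.0 CPM at D1, a log2 fold change of 1.08 (SE 0.13, adjusted p = 2.18e-05). *Trxr1*, thioredoxin reductase, had a log2 fold change of 0.94. *Keap1*, which holds the antioxidant transcription factor Cnc in check, was lower at D10, with a log2 fold change of -0.91 (SE 0.23, adjusted p = 0.01). *Parp1* and *Ku80*, which act at DNA breaks, had log2 fold changes of 0.82 and 1.30, and were the only DEGs among 18 DNA repair genes tested. Of 33 proteasome subunit genes, *Prosalpha3T* (1.90) and *Rpn9* (0.87) rose, and none fell. The counts of antioxidant, DNA repair and proteasome genes called in a direction moved by at most 2 over the fits that left out 1 library. None of 82 cytoplasmic ribosomal protein genes was a DEG in edgeR's test, and their median log2 fold change was -0.27. An unadjusted p under 0.05 was found for 7 of them, and DESeq2 called 0. Without replicate 1 of D1, 16 rose and the median was 0.44, while 7 fell without replicate 2 of D1 and 6 without replicate 3 of D1, so that the direction depended on which D1 library was left out.

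Genes for excitability and signalling included the most abundant DEGs in either direction, *para* and *Sh*. *para* (FBgn0285944, chromosome X from 16455027 to 16533096) encodes the only voltage-gated sodium channel of the fly that carries action potentials. It was at 24026, 26469 and 24913 CPM at D10, against 3145, 4586 and 4558 CPM at D1, a log2 fold change of 2.62 (SE 0.20, adjusted p = 3.53e-07). In Rh1>Ctrl, whose values were normalized in a separate fit, *para* averaged 312 ± 103 CPM at D10 and 159 ± 5.82 CPM at D1 (SD, n = 3 each). Of 24 channel genes tested, 6 rose and 4 fell. *Ih*, a cation channel opened by hyperpolarization, was at 766, 820.4 and 825 CPM at D10, against 161, 177 and 189 CPM at D1, a log2 fold change of 2.19 (SE 0.12, adjusted p = 1.99e-08). *Shaw* and *Elk*, both potassium channels, had log2 fold changes of 1.43 and 1.01. The calcium channel *Ca-alpha1D* and the sodium leak channel *na* rose less (0.70 and 0.66).

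The potassium channels that fell were *Sh*, *Shab*, *eag* and *sei*. *Shab*, the delayed rectifier that limits the light response of photoreceptors, was at 941, 984 and 1013 CPM at D10, against 2011, 2801 and 2805 CPM at D1, a log2 fold change of -1.37 (SE 0.15, adjusted p = 9.95e-06). *Sh*, the Shaker channel, had 13247, 15493 and 13659 CPM at D10 and 18394, 26507 and 26648 CPM at D1, a log2 fold change of -0.75 (SE 0.20, adjusted p = 0.0151). *eag* had 3638, 4159 and 3856 CPM at D10 and 6319, 7987 and 8140.0 CPM at D1, a log2 fold change of -0.95 (SE 0.16, adjusted p = 0.000589). Replicate 1 was the lowest of the D1 samples for all 3 of these genes and was still above every D10 sample. *sei* had a log2 fold change of -0.80. Without replicate 1 of D1, 6 channel genes rose and 4 fell, and in the fit of all 12 samples 3 rose and 3 fell.

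*nAChRalpha7*, a nicotinic acetylcholine receptor subunit, was at 2926, 3242 and 2953 CPM at D10, against 680.3, 929.9 and 952 CPM at D1, a log2 fold change of 1.83 (SE 0.15, adjusted p = 7.74e-07). *Octbeta3R* was at 175, 190.3 and 157 CPM at D10, against 22.6, 30.7 and 31.7 CPM at D1, a log2 fold change of 2.61 (SE 0.16, adjusted p = 4.58e-08). *Pde8*, which breaks down cyclic AMP, had 3466, 3182 and 3348 CPM at D10 and 1135, 1326 and 1357 CPM at D1, a log2 fold change of 1.39 (SE 0.13, adjusted p = 3.38e-06). *rut*, an adenylyl cyclase that makes cyclic AMP, was lower at D10, with a log2 fold change of -0.61 (SE 0.13, adjusted p = 0.00439).

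Genes of the synapse and of histamine, the transmitter of photoreceptors, went both ways. Of 29 tested, 4 rose and 2 fell, where 8.44% and 6.18% of all genes did, around a median log2 fold change of -0.01. Without replicate 2 of D10 2 rose and 1 fell, and in the fit of all 12 samples 2 rose and none fell. *Rim*, a scaffold of the active zone, was at 2769, 2912 and 2789 CPM at D10 and 1127, 1679.8 and 1702 CPM at D1, a log2 fold change of 0.91 (SE 0.16, adjusted p = 0.000858). Synapsin (*Syn*), *Syt4* and *Syt12* had log2 fold changes of 0.63, 0.67 and 1.27, of which *Syn* was not called without replicate 1 of D1. *Syt1*, the calcium sensor of vesicle fusion, fell, with a log2 fold change of -0.62 (adjusted p = 0.0148), and so did *t*, which frees histamine for use again. *shi*, the dynamin that recovers vesicle membrane, was at 1370.0, 1480.2 and 1358 CPM at D10 and 2496, 2979 and 3041 CPM at D1, a log2 fold change of -1.02 (SE 0.13, adjusted p = 7.38e-05). *Prosap*, a Shank scaffold, *shakB*, a gap junction protein, and *tweek*, which acts in vesicle recycling, had log2 fold changes of -1.03, -0.62 and -0.66. Among the most abundant DEGs were also *eIF4G2* (1.01), a translation initiation factor, *mei-P26* (0.93), a TRIM-NHL protein, and *retn* (0.63), an ARID-domain transcription factor, which was not called without replicate 1 of D1. *CG42795* (-0.74) and *M7BP* (-0.81) were among those that fell.

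**Figure D3:**
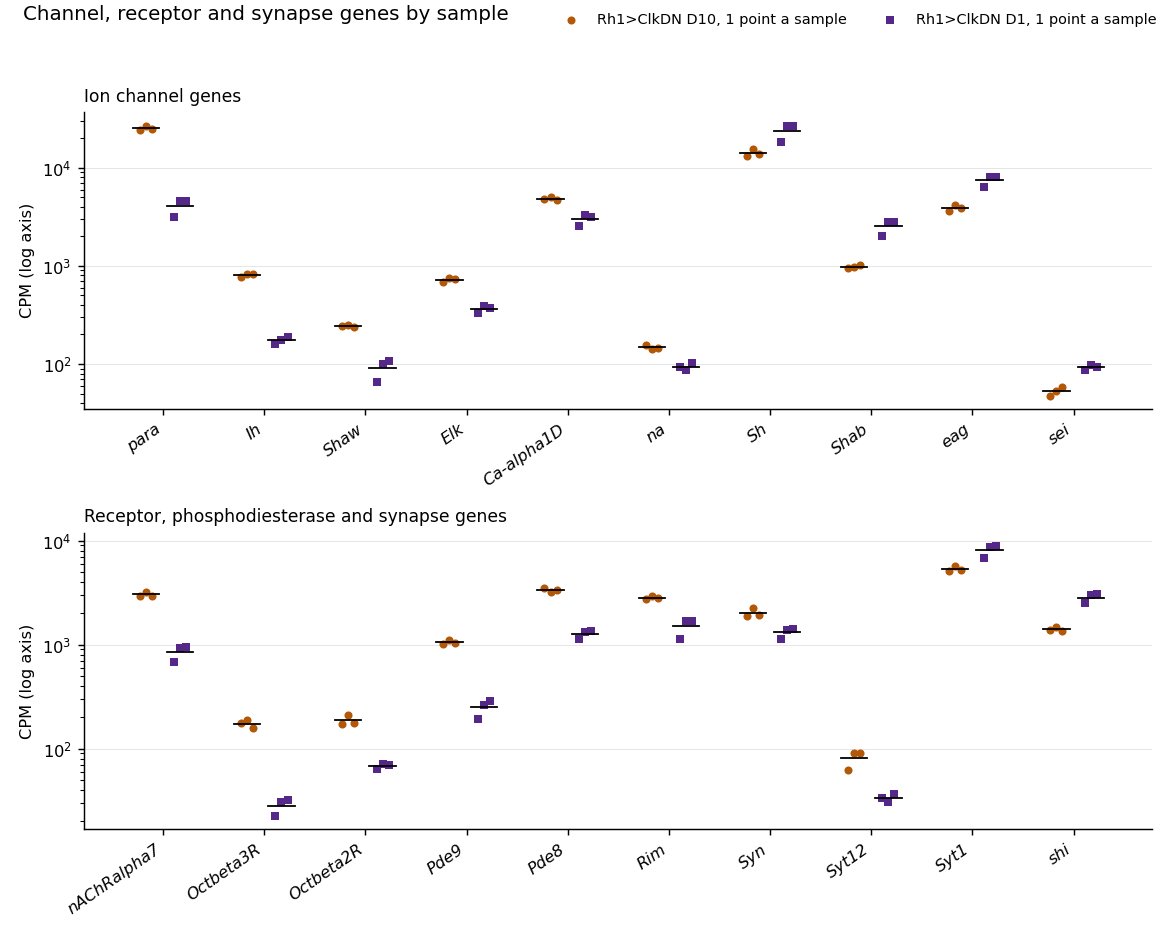
CPM of ion channel genes (upper panel) and of receptor, phosphodiesterase and synapse genes (lower panel) in each Rh1>ClkDN sample, on log axes. Circles are the 3 D10 samples, squares the 3 D1 samples and bars the means. *para* stands highest of the genes drawn at D10, and *Sh*, *Shab*, *eag*, *sei*, *Syt1* and *shi* are the genes whose D10 points lie below the D1 points.

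Cell surface proteins that neurons use to recognise partners were among the genes that rose. The Dpr proteins and their DIP binding partners form pairs of immunoglobulin proteins across synapses. Of 31 tested, 9 rose and 2 fell, with a median log2 fold change of 0.57, and 3 rose and 1 fell in the fit of all 12 samples. *dpr11* was at 283, 326 and 278 CPM at D10, against 109.5, 141 and 150.1 CPM at D1, a log2 fold change of 1.14 (SE 0.13, adjusted p = 2.25e-05). *dpr9* and *dpr12* had log2 fold changes of 1.29 and 1.39, and *dpr21*, *dpr15* and *dpr14* of 1.61, 1.20 and 0.97. Of the DIP genes, *DIP-alpha*, *DIP-beta* and *DIP-kappa* rose (1.19, 1.13 and 1.08). *dpr8* was the exception among the abundant members, at 127, 123 and 108 CPM at D10 and 213, 267 and 265 CPM at D1, a log2 fold change of -1.06 (SE 0.13, adjusted p = 3.05e-05). *dpr19* fell as well (-0.86). *side*, *side-II* and *side-V*, surface proteins that guide motor axons or resemble one that does, had log2 fold changes of 0.79, 0.70 and 1.20, and were the DEGs among 20 Beat and Side genes tested. Without replicate 3 of D1 or replicate 3 of D10 1 of these genes rose, as in the fit of all 12 samples.

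Among 49 other guidance and adhesion genes, 7 rose and 5 fell, and 3 and 1 did in the fit of all 12 samples. *Ten-m*, a teneurin, was at 183, 183 and 211 CPM at D10, against 463, 498 and 504 CPM at D1, a log2 fold change of -1.34 (SE 0.12, adjusted p = 1.11e-06). The related *Ten-a* and the cell adhesion genes *ed* and *caps* fell too, with log2 fold changes of -0.70, -0.75 and -0.67, as did the guidance cue *sli* (-0.61). *fred*, a paralog of *ed*, rose, with 102, 135 and 120.5 CPM at D10 and 32.2, 40.1 and 38.0 CPM at D1, a log2 fold change of 1.69 (SE 0.16, adjusted p = 2.42e-06). *Dscam1*, *Dscam3*, *Fas2*, *klg*, and the cadherins *ft* and *stan* had log2 fold changes between 0.74 for *Dscam1* and 1.67 for *stan*. All 6 were higher in every D10 sample than in any D1 sample.

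Of 16 clock genes tested 3 were DEGs and of 26 phototransduction genes 2 were, where 14.6% of all genes were. Of the clock genes, *dco* (doubletime, a kinase of Per) and *CkIIalpha*, a casein kinase, rose by log2 fold changes of 0.63 and 0.67. Neither was called without replicate 2 of D10 or without replicate 1 of D1, and their changes without the D1 library were 0.56 and 0.55. *cwo*, a repressor that Clk:Cyc switches on, was at 159, 185 and 164 CPM at D10, against 299.7, 381 and 382 CPM at D1, a log2 fold change of -1.07 (SE 0.13, adjusted p = 2.74e-05). *tim* was at 2477, 2582 and 2589 CPM at D10 and 3148, 3966 and 3918 CPM at D1, and its log2 fold change of -0.53 (adjusted p = 0.0168) was under the fold threshold. Without replicate 1 of D1 it was -0.62 and passed. *Clk* had 0.55 (adjusted p = 0.0331), also under the fold threshold. *per*, *vri*, *Pdp1* and *cyc* were not DEGs, with log2 fold changes of -0.28, -0.00, 0.18 and -0.33, and adjusted p-values from edgeR's test of 0.112, 0.997, 0.543 and 0.495.

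Of the phototransduction genes, *trpl* rose and *inaF-B* fell. *trpl* encodes the TRP-like channel. It was at 3446, 3151 and 3489 CPM at D10, against 1648, 1918 and 1935 CPM at D1, a log2 fold change of 0.87 (SE 0.14, adjusted p = 0.000302). *inaF-B*, which TRP needs and which shares exons with other *inaF* genes, had -0.74. The median log2 fold change of the list was -0.01. *norpA*, *trp*, *ninaE*, *Arr1* and *Arr2* had log2 fold changes of 0.40, -0.22, 0.03, -0.30 and -0.00, and none of these passed. Among 13 genes of rhodopsin maturation and of its chromophore, *Cnx99A* rose and *ninaB*, *Pdh* and *rdhB* fell, and without replicate 1 of D1 none was called. The falls were also not called without any 1 of the D10 libraries. *Cnx99A* and *ninaB* then had log2 fold changes of 0.57 and -0.57. *Pdh* and *rdhB*, retinol dehydrogenases, were at 186, 52.3 and 54.9 CPM and 36.3, 7.08 and 8.93 CPM in replicates 1, 2 and 3 of D1, and their log2 fold changes moved to -0.31 and -0.51 without replicate 1.

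The rhabdomere is built on actin, and its genes went both ways, with 3 that rose and 5 that fell of 28. In the fit of all 12 samples none rose and 3 fell, and 1 rose without replicate 3 of D1, replicate 1 of D10 or replicate 3 of D10. *Myo28B1*, an unconventional myosin, was at 59.1, 71.3 and 66.6 CPM at D10, against 292, 329 and 363 CPM at D1, a log2 fold change of -2.32 (SE 0.13, adjusted p = 2.06e-08). *ck*, the myosin VIIa gene, *sdt*, a partner of Crumbs in the stalk membrane, *Moe*, which ties membrane to actin, and *Act5C*, an actin, fell, with log2 fold changes of -1.24, -1.0, -0.77 and -0.70. *chic* (profilin), *Arp2* and *Act42A* rose, with 0.95, 0.63 and 1.14.

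The list with the largest share of falls held the homeotic and segmentation genes, transcription factors that set body regions in the embryo. Of 25 tested, 16 fell and none rose, with a median log2 fold change of -1.58. Without replicate 1 of D1, 18 fell, 15 to 18 did over the fits that left out 1 library, and 5 did in the fit of all 12 samples. *Abd-B* (FBgn0000015, chromosome 3R from 16927212 to 16972236), the most posterior homeotic gene, was at 40.3, 53.5 and 36.6 CPM at D10, against 278, 318 and 382 CPM at D1, a log2 fold change of -2.91 (SE 0.16, adjusted p = 2.06e-08). *Antp* was at 42.1, 38.2 and 50.1 CPM at D10 and 174, 264 and 290.2 CPM at D1, a log2 fold change of -2.48 (SE 0.18, adjusted p = 2.11e-07). *abd-A* and *Ubx* had log2 fold changes of -2.77 and -2.37. The homeotic genes of the head, *lab*, *pb* and *Scr*, had -2.12, -1.94 and -1.48. None of these 7 homeotic genes had a D10 sample as high as its lowest D1 sample, while *Dfd*, which also acts in the head, was not called (-0.40). *Kr*, a gap gene, was at 7.98, 11.1 and 8.43 CPM at D10 and 54.2, 90.7 and 70.7 CPM at D1, a log2 fold change of -2.97 (SE 0.24, adjusted p = 5.53e-07). *opa*, *odd*, *slp2*, *cad*, *inv* and *Ptx1* had log2 fold changes between -1.90 for *odd* and -1.45 for *inv*. *eve* and *run* were the least abundant of the genes called, with 0.998, 5.09 and 3.77 CPM and 0, 0 and 1.11 CPM at D10, against 9.60, 14.4 and 16.2 CPM and 2.51, 2.56 and 5.13 CPM at D1.

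Among 31 transcription factor genes of the eye, 7 fell and 1 rose, and 4 fell and none rose in the fit of all 12 samples. *ss*, which chooses between R7 subtypes, was at 51.5, 46.5 and 46.6 CPM at D10, against 198, 263 and 272 CPM at D1, a log2 fold change of -2.34 (SE 0.15, adjusted p = 4.74e-08). *Awh* and *otp*, homeobox genes, were also among the 15 largest falls of the comparison. *Awh* was at 10.6, 5.33 and 15.1 CPM at D10 and 81.2, 104 and 95.8 CPM at D1, a log2 fold change of -3.18 (SE 0.27, adjusted p = 9.70e-07). *otp* had 14.4, 13 and 16.2 CPM at D10 and 74.3, 116 and 99.8 CPM at D1, a log2 fold change of -2.73 (SE 0.20, adjusted p = 2.12e-07). *dac*, *hth* and *svp*, factors of eye development, had log2 fold changes of -1.71, -0.82 and -0.86. *ato*, the proneural factor of R8, was called up from at most 5 counts a library at D1 (3.01). Of 25 Polycomb and Trithorax group genes, which keep homeotic genes off or on, *trx*, *Su(z)2* and *Trl* fell (-0.80, -0.65 and -0.84) and none rose, and 1 fell in the fit of all 12 samples. *slou*, *C15* and *dmrt99B*, transcription factors outside these lists, had log2 fold changes of -2.77, -2.53 and -2.55, and the uncharacterised *CG9380* had -2.58. FBgn0027341, for which no symbol was matched, had -2.72.

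**Figure D4:**
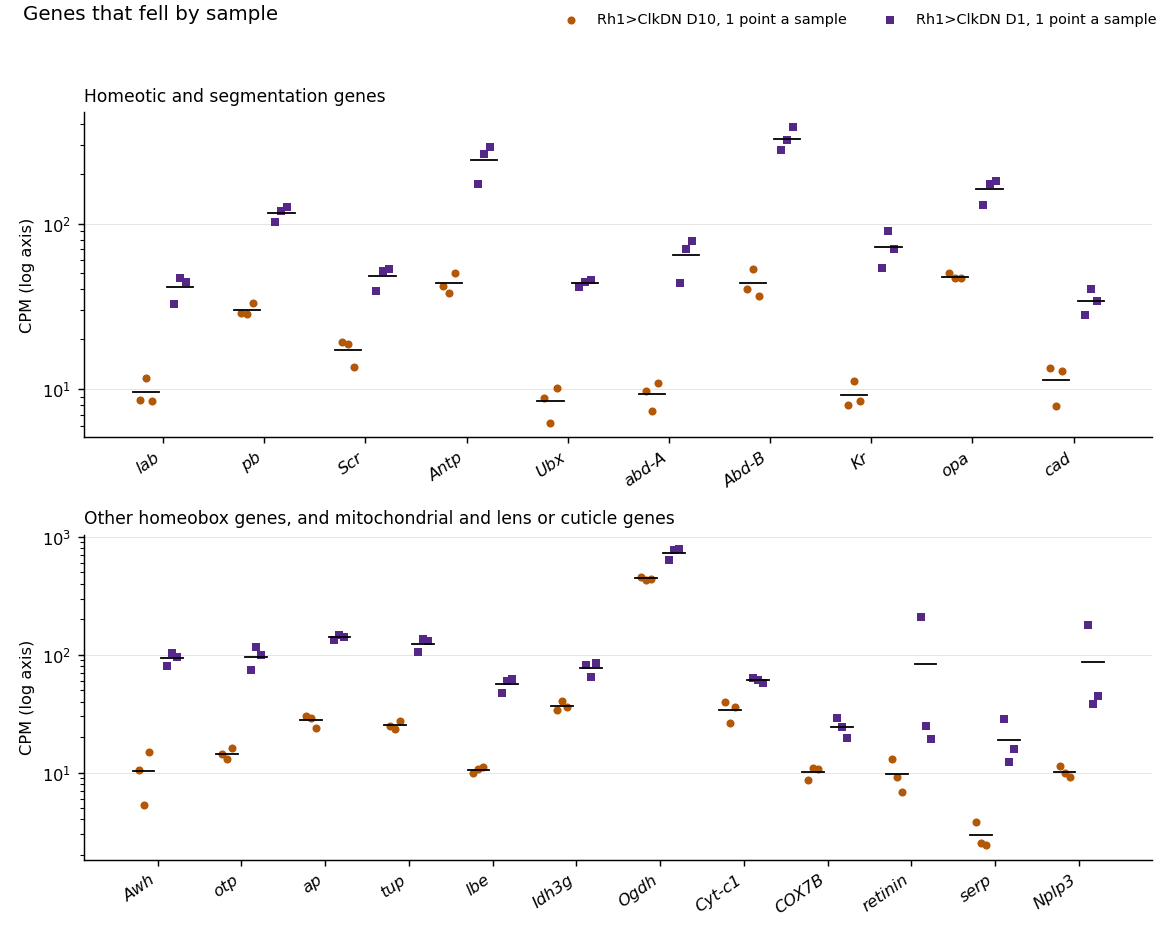
CPM of homeotic and segmentation genes (upper panel) and of other homeobox, mitochondrial, lens and cuticle genes (lower panel) in each Rh1>ClkDN sample, on log axes. Circles are the 3 D10 samples, squares the 3 D1 samples and bars the means. All D10 points lie below the D1 points, and for *retinin* and *Nplp3* the highest D1 point, replicate 1, stands far above the other D1 points.

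Genes of mitochondrial energy metabolism fell more often than they rose. In the tricarboxylic acid (TCA) cycle, 8 of 16 genes fell and none rose, with a median log2 fold change of -0.73. *Idh3g*, a subunit of isocitrate dehydrogenase, was at 34.1, 40.8 and 36.4 CPM at D10, against 82.1, 64.5 and 85.1 CPM at D1, a log2 fold change of -1.06 (SE 0.17, adjusted p = 0.000395). *Ogdh*, of the oxoglutarate dehydrogenase complex, had 456, 433 and 444 CPM at D10 and 639.7, 774 and 787 CPM at D1, a log2 fold change of -0.72 (SE 0.12, adjusted p = 0.000551). *Pdha* and *muc*, of the pyruvate dehydrogenase complex, had -0.87 and -0.74, and *kdn*, citrate synthase, had -0.78. *Fum1*, *Idh3b* and *mAcon1* had log2 fold changes of -1.21, -0.77 and -0.69, of which *mAcon1* was not called without replicate 1 of D1. Of 73 subunit genes of oxidative phosphorylation in the nuclear genome, 16 fell and none rose, with a median of -0.59. The median was -0.48 without replicate 1 of D1, and 7 to 18 genes fell over the fits that left out 1 library, 7 of them without replicate 2 and 7 without replicate 3 of D10. In the fit of all 12 samples none of the oxidative phosphorylation genes and 1 of the TCA cycle genes fell. *Cyt-c1*, of complex III, was at 40.1, 26.6 and 35.9 CPM at D10 and 63.6, 61.2 and 57.4 CPM at D1, a log2 fold change of -0.82 (SE 0.18, adjusted p = 0.00528). *COX7B*, of complex IV, had a log2 fold change of -1.27, *ATPsynD*, of ATP synthase, of -0.84, and *ND-75*, of complex I, of -0.83. Mitochondrial ribosomal protein genes had a median of -0.51, with 8 of 54 that fell and none that rose. Without replicate 1 or replicate 2 of D10 1 fell, without replicate 3 of D10 2 did, without replicates 2 and 3 of D1 in turn 4 and 3 did, and in the fit of all 12 samples none did. *Glut1*, a sugar transporter, was at 237, 233 and 209.7 CPM at D10, against 73.6, 96.0 and 93.3 CPM at D1, a log2 fold change of 1.37 (SE 0.13, adjusted p = 3.15e-06). Of 23 glycolysis and trehalose genes tested, however, 2 rose and 1 fell, near the shares of all genes, 8.44% and 6.18%. Their median log2 fold change was -0.26, or 0.04 without replicate 1 of D1, and 15 of the 23 were below 0. Of 19 lipid store and fatty acid genes, 1 rose and 1 fell, again near those shares. The gene that rose was *AcCoAS*, which makes acetyl-CoA from acetate, with a log2 fold change of 0.89. In the fit of all 12 samples 1 glycolysis and trehalose gene rose and no lipid gene was called.

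Muscle genes were also among those that fell. Of 11 muscle markers tested, 6 fell and 1 rose, also without replicate 1 of D1, and 2 fell and none rose in the fit of all 12 samples. *Mhc*, the muscle myosin, was at 48.5, 34.7 and 31.7 CPM at D10, against 122, 78.1 and 89.1 CPM at D1, a log2 fold change of -1.33 (SE 0.20, adjusted p = 0.000257). *Mlc2*, *Prm*, *Act57B* and *Act79B* had log2 fold changes of -1.75, -1.03, -1.16 and -2.02, and the troponin gene *up* was the other that fell. *bt*, a giant protein of the sarcomere, rose (0.68). The summed level of the 15 muscle markers was 314 to 357 CPM at D10 and 345 to 611 CPM at D1, scaled to library totals, and no marker was at 0 in all 6 libraries. Their part in the fall of the mitochondrial genes was not tested.

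Proteins of the lens and of cuticle gave some of the steepest falls, and these rest partly on replicate 1 of D1. *retinin*, a protein of the corneal lens, was at 13, 9.26 and 6.88 CPM at D10, against 208, 24.8 and 19.4 CPM at D1, a log2 fold change of -3.09 (SE 0.69, adjusted p = 0.00518). *Nplp3*, a neuropeptide-like precursor, had 11.4, 9.96 and 9.10 CPM at D10 and 180.1, 38.4 and 44.5 CPM at D1, a log2 fold change of -3.10 (SE 0.47, adjusted p = 0.000268). *CG7203* and *CG4000*, the largest falls among DEGs with a mean count of 50 or more and ages that did not overlap, were at 3.59, 1.62 and 1.11 CPM and 1.4, 2.08 and 2.44 CPM at D10, against 104, 23 and 27.6 CPM and 73.6, 9.84 and 8.74 CPM at D1. In these 4 genes D1 replicate 1 held more than 3 times the CPM of the next D1 library, as in 17 of the 522 genes that fell. All 4 were called without that library, with log2 fold changes of -1.17 for *retinin*, -2.01 for *Nplp3*, -3.53 for *CG7203* and -2.22 for *CG4000*. DESeq2 gave *retinin* no adjusted p. *serp*, a chitin deacetylase, had 3.79, 2.55 and 2.44 CPM at D10 and 28.6, 12.4 and 16.0 CPM at D1, a log2 fold change of -2.67 (SE 0.39, adjusted p = 0.000176). *Cpr100A*, a cuticle protein gene, had at most 3 counts in every D10 library and was at 14.4, 10.8 and 11.4 CPM at D1. It passed the count filter only through D1, so it had to differ. Computed against a floor of 3 counts a library, its level was at least 18.7-fold lower at D10. Of 21 cuticle protein genes tested, 3 fell, *Cpr100A* among them, and 2 rose. None rose in the fit of all 12 samples or without any 1 of the D10 libraries. Of 11 markers of cone, pigment and other support cells of the eye, *Crys*, a lens crystallin, and *Pu*, an enzyme of pigment synthesis, fell, and neither was called without replicate 1 of D1. The summed level of these support cell markers was 3502 to 4159.8 CPM at D10 and 2796 to 3484 CPM at D1. Yet 8 of the 11 tested had a log2 fold change below 0, with a median of -0.14. Among them *w* is also carried by the transgenes (*w+mC* in the genotypes of the study), so its reads need not mark pigment cells. The part of support cells in the falls of lens genes was not tested.

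Summed levels of glial, other neuronal and R1 to R6 markers were higher in every D10 sample than in any D1 sample. Of 14 glial markers tested, *Eaat1*, a glutamate transporter, rose, with 1303, 1353 and 1267 CPM at D10 and 581, 577 and 575 CPM at D1, a log2 fold change of 1.18 (SE 0.11, adjusted p = 3.38e-06). *nrv2*, a sodium pump subunit, fell (-1.33), and so did *alrm* (-1.02). *alrm* was not called without replicate 1 of D1. The summed glial level was 1647 to 1715 CPM at D10 and 1028 to 1451 CPM at D1. *Eaat1* alone held most of that sum at D10, so the sum does not stand for glial markers as a class. Of the 14 tested, 6 had a log2 fold change above 0 and 8 below, with a median of -0.04. Among 11 markers of other neurons *amon*, a prohormone convertase, rose (0.69) and *Gad1*, which makes GABA, fell (-1.09), with a summed level of 2201 to 2269.7 CPM at D10 and 1461 to 1745 CPM at D1. *Lsp1beta* and *Yp1* rose among 9 fat body markers (1.15 and 1.96), with a median log2 fold change of 0.40. Without replicate 1 of D1, 4 rose and the median was 0.92, 1 rose without each of the other libraries, and none did in the fit of all 12 samples. Their summed level was 2017 to 2211 CPM at D10 and 1068 to 3329.6 CPM at D1. Of the 11 R1 to R6 markers *trpl* and *elav* rose (0.87 and 0.62) and none fell, and *elav* was not called without replicate 1 of D1. The summed level of the 11 was 36256 to 36642 CPM at D10 and 30739 to 31481 CPM at D1. Yet 6 of them had a log2 fold change above 0 and 5 below, with a median of 0.03, so this sum does not stand for the markers as a class. The counts of glial, other neuronal and R1 to R6 markers called in a direction moved by at most 1 over the fits that left out 1 library, and in the fit of all 12 samples no R1 to R6 marker was called. The part of these markers in the changes of channel and synapse genes was not tested.

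**Figure D5:**
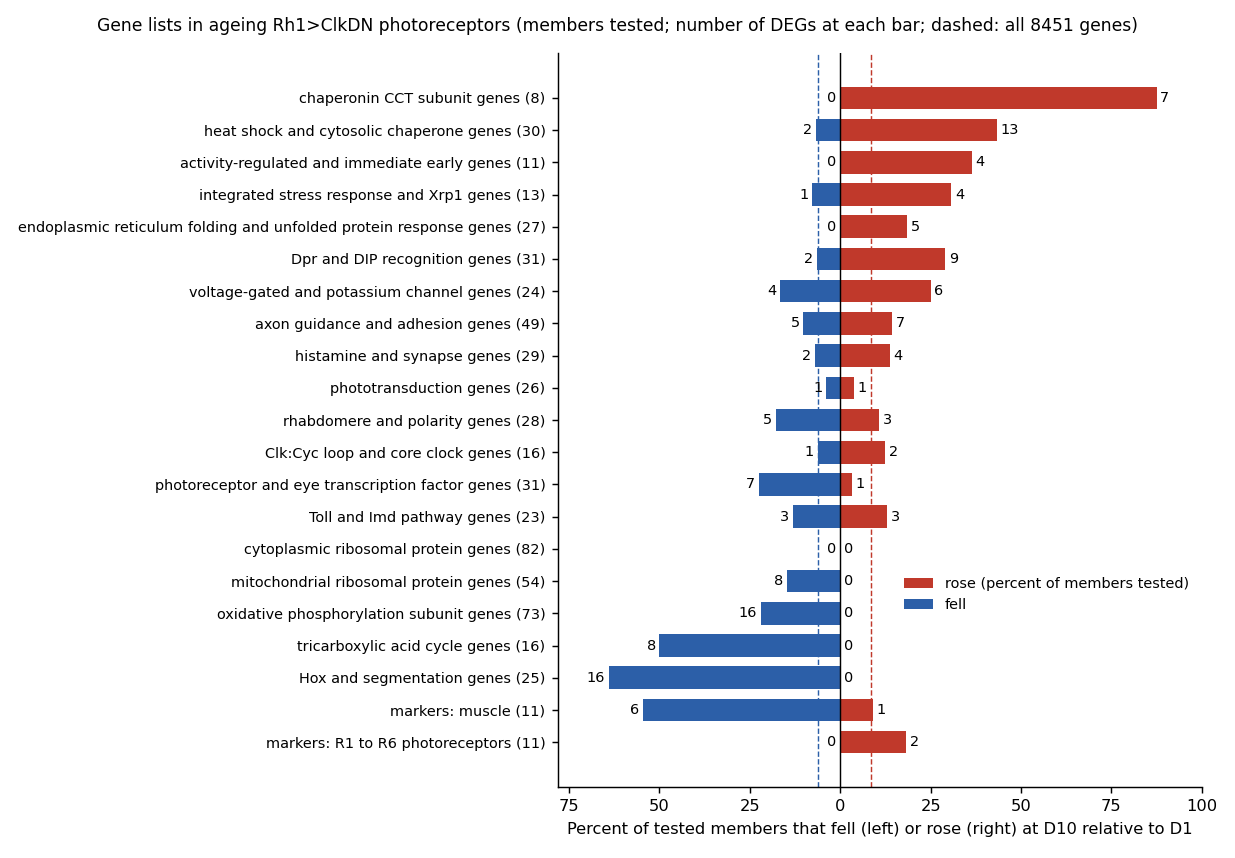
Percent of the tested members of each gene list that rose (red, right) or fell (blue, left) at D10 relative to D1 in Rh1>ClkDN, with the number of DEGs at each bar and the number tested in brackets. Dashed lines are the shares over all 8451 genes, 8.44% that rose and 6.18% that fell. The chaperonin list has the highest share of rises and the homeotic and segmentation list the highest share of falls among those drawn.

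The share of DEGs varied with chromosome, gene length and level. On the X chromosome 184 of 1525 genes tested rose (12.1%), against 5.42% to 8.97% on the other arms, while the share that fell was 6.82% on X and 4.91% to 6.54% on the others. Genes were also ranked by length and by mean CPM and cut into 5 bins of equal size. Among the longest genes, of at least 10944 bases, 15.4% rose and 10.5% fell, against 5.71% and 4.22% of those of at most 1587 bases. In the bin with the highest mean CPM 12.0% rose and 9.29% fell, against 5.56% and 2.31% in the lowest bin. These are counts with no test, and length and level are not separated in them. Exons shared with another annotated gene were found in 33.7% of the genes that rose, 29.7% of those that fell and 38.4% of all genes tested.

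The ageing of Rh1>Ctrl flies is set beside these changes, with less even libraries. Total counts in Rh1>Ctrl were 1356529 in D10 replicate 2 and 2680229 in D1 replicate 3, against 3020600 to 5279375 in the others. D1 replicate 3 stood apart in content as well, with 13097 genes that had a count, against 9933 and 10180 in D1 replicates 1 and 2. Its Pearson correlations with them in log2 CPM were 0.913 and 0.909, where they gave 0.977 between themselves. D10 replicate 2 gave 0.887 and 0.920 with D10 replicates 1 and 3, which gave 0.960 between themselves. There, 51 of 7239 genes were DEGs at D10 relative to D1 (0.705%), and 809 had an unadjusted p under 0.05. The Rh1>Ctrl replicates were less alike, with a biological coefficient of variation of 0.239 in Rh1>ClkDN and 0.409 in Rh1>Ctrl, and the numbers of DEGs of the genotypes are not compared for that reason. The count in Rh1>Ctrl was 1 without D1 replicate 3, 2 without D1 replicate 1, 4 without D1 replicate 2, 2 without D10 replicate 3 and 167 without D10 replicate 2. With all 12 samples in the fit, Rh1>ClkDN gave 297 DEGs and Rh1>Ctrl 322. Of the 1235 DEGs of Rh1>ClkDN, 941 were tested in Rh1>Ctrl, and of those 685 (72.8%) moved the same way there and 33 were DEGs. Over all 7041 genes tested in both genotypes, 57.3% changed in the same direction. *Xrp1*, *Stip1*, *DnaJ-1* and *Hsp83* were DEGs that rose in both, with log2 fold changes in Rh1>Ctrl of 1.35, 2.28, 2.15 and 5.22, and *cwo* and *serp* fell in both (-1.71 and -4.63 in Rh1>Ctrl). The 8 CCT genes had a median log2 fold change of 1.60 in Rh1>Ctrl, though 0 were DEGs there. The interaction test described below called 0 of them. Of 24 heat shock and cytosolic chaperone genes tested in Rh1>Ctrl, 7 rose and 0 fell, with a median of 0.71. The homeotic genes *Abd-B*, *abd-A*, *Ubx*, *lab* and *pb* did not pass the count filter in Rh1>Ctrl. They need not be silent there. The summed level of the homeotic and segmentation list in Rh1>Ctrl was 43.2, 45.1 and 319 CPM in the D1 libraries. At D10 it was 59.6 to 73.0 CPM, scaled to library totals.

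The difference between the genotypes in the effect of age was tested as an interaction over all 12 samples. It was called at an adjusted p under 0.05 for 56 of 9135 genes (0.613%), 39 with the higher log2 change in Rh1>ClkDN and 17 with the lower, and 1167 genes had an unadjusted p under 0.05. With any 1 Rh1>ClkDN library left out the count fell to between 9 and 24, and with any 1 Rh1>Ctrl library left out it lay between 21 and 117. *CG7896* differed most clearly. Its log2 fold change was 6.58 higher in Rh1>ClkDN than in Rh1>Ctrl (SE 0.69, adjusted p = 0.000272). *Hsp83* rose less in Rh1>ClkDN than in Rh1>Ctrl, with a difference of -3.28 (SE 0.42, adjusted p = 0.00234). *Dif* and *Ih* rose more in Rh1>ClkDN, by 1.74 and 1.77 (adjusted p = 0.00989 and 0.0270), and were called in 10 and 5 of the 12 fits that left out 1 library, where *CG7896* and *Hsp83* were called in all 12. For *para* the difference of 1.66 had an adjusted p of 0.0624, over the threshold. Among the other chaperone genes that rose in Rh1>ClkDN the lowest adjusted p of the interaction was 0.0827, for *Hsp70Ab*.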

How the data were processed

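Nuclear RNA was sequenced from 12 samples, 3 of each genotype and age, with the Ovation SoLo kit from 10 ng of RNA. The deposited values are whole-number counts of reads per gene. The submitters' processing notes name Trimmomatic, STAR, SAMtools and DESeq2 and the builds dm6 and BDGP6, while versions, the annotation release and the use of strand in counting are not given in the sources used here. Although the deposited table is named as normalized, its totals differ between samples, so the counts the authors deposited were treated as not normalized. No batch or date is given in the labels.

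Each age comparison was fitted in edgeR 4.0.16 (R 4.3.3) on its own 6 samples with TMM factors, glmQLFit and glmQLFTest, after a filter of at least 10 counts in at least 3 samples, with Benjamini-Hochberg adjustment over all genes tested. The SE of a log2 fold change was its size over the root of the F statistic. CPM was computed from the counts and the TMM-scaled totals of each fit, and summed marker levels from plain totals. The interaction was fitted on all 12 samples. The replicate numbers did not pair the samples. The named genes are the 15 largest rises and falls among DEGs of mean count 50 or more whose ages did not overlap, the 10 most abundant DEGs in each direction, and members of gene lists. Members and lists were chosen with earlier results of these data known. Alternatives were DESeq2 1.42.0, limma 3.58.1 on log2(CPM + 1), other normalizations, filters, thresholds and sample sets, with a check on simulated data. A planned search of promoter motifs was not run, since no promoter sequence was used here.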

Additional observations from a re-analysis of the deposited data

Results flagged for a closer look

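For 19 of the genes named by rank or held in a list, the effect of age differed between the genotypes in the interaction test of edgeR, at a Benjamini-Hochberg adjusted p under 0.05 over 9135 genes. In each, the difference kept its sign in all 12 fits that left out 1 library. Values are log2 changes with age in Rh1>ClkDN minus those in Rh1>Ctrl. The causes of these differences were not tested.

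Differences called in all 12 of those fits were 6.58 for *CG7896*, -3.28 for *Hsp83*, 2.37 for *bt*, -2.81 for *ap*, -2.05 for *Ten-m* and 5.62 for *CG2861*, which was not tested in Rh1>Ctrl alone. *bt*, the sarcomere gene, had a log2 change of 0.68 in Rh1>ClkDN and -1.67 in Rh1>Ctrl, and *ap*, a LIM homeobox gene, had -2.34 in Rh1>ClkDN and 0.45 in Rh1>Ctrl. *Hsp83* had 1.86 in Rh1>ClkDN and 5.22 in Rh1>Ctrl. *nrv2* (-1.85) was called in 11 of the 12 fits and *Dif* (1.74) in 10. *Hsp26* differed by -3.35, with 0.26 in Rh1>ClkDN and 3.62 in Rh1>Ctrl, and was called in 8 fits.

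The remaining differences were called in at most 6 of the 12 fits. Rh1>ClkDN had the higher change for *Yp1* (9.14, adjusted p = 0.0179), *Cyp4ae1* (3.52), *Cht6* (2.53), *dpr9* (1.80), *Ih* (1.77), *fred* (1.76), *Pde9* (1.47) and *kay* (1.37). It had the lower change for *ninaD* (-2.32) and *Eip75B* (-1.41). *Yp1*, a yolk protein gene, rests on at most 33 counts a library in Rh1>ClkDN and had 0 CPM in all Rh1>Ctrl D10 libraries, so that its difference depends on how the fit treats a group at 0 and is no exact size.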

How the results depend on the processing

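Under the alternatives tried on the ageing of Rh1>ClkDN, DEGs called in common with the reported fit kept their direction. A single fit of all 12 samples called 297 genes, 174 that rose and 123 that fell. At an adjusted p under 0.01 the count was 808, with 319 that fell. Over 2-fold it was 774, with 288 that fell, and glmTreat against 1.5-fold called 491, with 321 that rose and 170 that fell. With 1 library left out the total lay between 886 and 1575, the rises between 528 and 926 and the falls between 358 and 649, the highest values being those without D1 replicate 1. The other fits, DESeq2 (1241), no TMM (1128), upper quartile (1231), no filter, a mean count of 50 and limma (1262), stayed within 1.5 times of 1235. Of the genes followed one by one, 167 lost their call in the fit of all 12 samples and 98 kept their status. Under glmTreat 143 lost their call and 122 kept their status. Without a given library 26 to 65 lost their call and 200 to 238 kept their status. In Rh1>Ctrl the count of 51 became 189 with DESeq2, 77 under a mean count minimum of 50 and 322 in a fit of all 12 samples that was added after the data were seen, and lay between 1 (without D1 replicate 3) and 167 (without D10 replicate 2). The interaction count of 56 became 269 with DESeq2, 108 without TMM, 136 under a mean count minimum of 50, and 9 (without Rh1>ClkDN D10 replicate 1) to 117 (without Rh1>Ctrl D10 replicate 2). With the replicate block, 1291 genes were called in Rh1>ClkDN, 60 in Rh1>Ctrl and 51 for the interaction. Same-numbered Rh1>ClkDN samples did not deviate together, with correlations from -0.0063 to 0.0138.

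Depth limits the lowest genes, since 44 DEGs had at most 3 counts in every library of an age. With 3 libraries per age, p-values set each difference between the ages against the spread between these samples, which are described as independent biological replicates. Near-identical gene copies, overlapping genes and the unstated strand setting leave values of single genes uncertain. RNA was measured at 1 time of day.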

Other observations

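The gene groups below were put together after their values had been seen, so their counts are descriptions. Receptors for octopamine, tyramine, dopamine, serotonin and muscarinic acetylcholine signals were called up in 9 of 18 cases and down in none, where 8.44% of all genes rose. The count was 3 without replicate 3 of D10, 4 without replicate 1 of D10 and 2 in the fit of all 12 samples. *Octbeta2R* was at 174, 212 and 176 CPM at D10, against 63.1, 71.4 and 69.0 CPM at D1, a log2 fold change of 1.46 (SE 0.13, adjusted p = 1.54e-06). *Pde9*, a cyclic nucleotide phosphodiesterase, had 1019.9, 1112 and 1036 CPM at D10 and 194, 264 and 289 CPM at D1, a log2 fold change of 2.09 (SE 0.15, adjusted p = 1.29e-07). Homeobox genes outside the homeotic list fell in 22 of 48 cases, with 1 that rose, and 7 fell in the fit of all 12 samples. *ap*, *tup* and *lbe* had log2 fold changes of -2.34, -2.30 and -2.42. Genes of chitin and the lens matrix fell in 11 of 19 cases and rose in 2. Without replicate 3 of D10 6 fell, without replicate 2 of D10 7 did, and in the fit of all 12 samples 5 fell and none rose.

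Genes of the cilium, an organelle of mechanosensory neurons and sperm but not of photoreceptors, had 10 of 22 members that rose and 2 that fell, and in the fit of all 12 samples 3 rose and none fell. *btv*, a dynein subunit, was at 42.9, 50.5 and 41 CPM at D10, against 12.3, 9.25 and 13.1 CPM at D1, a log2 fold change of 1.95 (SE 0.22, adjusted p = 1.59e-05). *Cep290* and *nompB* had log2 fold changes of 2.71 and 2.03. The part of other cells in this was not tested. Among cytochrome P450 genes, *Cyp4p1*, *Cyp4p2* and *Cyp4p3* rose (1.43, 1.75 and 1.36) and *Cyp4g1*, *Cyp4e2* and *Cyp6v1* fell (-2.02, -1.18 and -1.96), of 45 tested. These counts, 3 each way, were near the 8.44% of all genes that rose and the 6.18% that fell. Without replicate 1 of D1, 8 rose and 3 fell, and the median log2 fold change of the list was 0.14, against -0.22 with all 6 libraries.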
